A study of Mus musculus with 9 samples.

Results

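A set of 29 genes for cholesterol synthesis, sterol sensing, uptake, transport, storage and efflux was followed through the conversion of 3T3-L1 cells into adipocytes. The members were taken by gene symbol, and all 29 were found among the 19094 genes listed in the data and were among the 13154 genes with enough reads to be tested. They comprise 18 synthesis enzymes, 4 sterol-sensing genes and 7 genes of uptake, intracellular transport, storage and efflux. Their share of all expected counts was 0.295% to 0.326% before induction, 0.331% to 0.35% in day 4 libraries and 0.319% to 0.336% in those of day 8.

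Cells build cholesterol from acetyl-CoA through mevalonate, isoprenoid diphosphates, squalene and lanosterol, and the enzymes sit mostly in the endoplasmic reticulum. When sterols are low there, SCAP escorts SREBP2 to the Golgi for cleavage, and the released fragment switches on synthesis and uptake genes, whereas INSIG proteins hold the complex back when sterols are plentiful. Excess cholesterol is esterified for storage or exported by ABC transporters whose genes respond to the oxysterol receptors LXR. Adipocytes store a large pool of free cholesterol at the surface of their lipid droplets.

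3T3-L1 is a clonal mouse fibroblast-like line that turns into fat-storing cells when it is given hormones at confluence. RNA was sequenced from 9 samples, 3 each at day 0, day 4 and day 8. All groups were the same unmodified line in high-glucose DMEM with fetal bovine serum, glutamine, penicillin and streptomycin. Cells of day 0 had received no inducer, cells of day 4 had spent 2 days in induction medium with dexamethasone, IBMX and insulin and then 2 days in maintenance medium with insulin, and cells of day 8 had spent 2 days in induction and 6 days in maintenance medium. The serum, which carries lipoprotein cholesterol, was thus shared by all groups, while no insulin had been added at day 0. Cells were pooled before RNA extraction according to the methods, and nothing in the labels states that the 3 replicates were separate cultures, so p-values measure the spread between these samples, which may be technical. The labels name a dorsal root ganglion dissection and a BGISEQ kit, whereas the methods name cultured cells and an Illumina sequencer. Expected counts summed to between 18216114 and 20452144 per library, with a median of 20182731, and day 0 replicate 2 was the shallowest. At this depth 3 counts correspond to 0.147 to 0.165 CPM (counts scaled to library size), a floor that covers counting error only. All members were above it in every library. The least abundant, Abcg1, had 10 to 17 counts at day 0.

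Markers of cell type were examined first. All 9 adipocyte markers rose from day 0 to day 4, with a median log2 fold change of 9.62, and their summed FPKM, a level scaled to gene length and library depth, was 27.8 to 30.6 before induction, 5023 to 7360 in day 4 libraries and 7567 to 8100 in those of day 8. Fabp4, a fatty acid binding protein, was the most abundant of them at days 4 and 8, and Pparg was at day 0. The labels call all samples adipocytes, but the day 0 libraries held Adipoq, the hormone adiponectin, at only 0.28 to 0.63 FPKM. Of 6 preadipocyte and fibroblast markers 1 rose (Pdgfra, 0.84) and 5 fell in the early phase, and 4 rose and 1 fell in the late phase. Of all genes tested, 35.5% rose and 33.7% fell early, and 22.5% rose and 22.7% fell late. The summed FPKM of these 6 markers was 2858 to 2973 before induction, 1738 to 1886 in day 4 libraries and 3057 to 3107 in those of day 8, most of it Col1a1. Dlk1, a preadipocyte surface protein, had log2 fold changes of -2.13 and 1.24. Of 11 markers of sensory neurons and Schwann cells, the tissue in the labels' dissection text, 3 reached 1 FPKM in any library, among them Avil and Prx, and the defining genes Scn10a and Sox10 stayed at or near 0. That list summed to 9.18 to 10.5 FPKM at day 0, with Prx most abundant, and was lower on both later days (3.38 to 4.11, then 5.06 to 5.32). Of 6 macrophage markers, 5 were listed, 2 reached 1 FPKM (Cd68 and Lyz2), and the list summed to 1.94 to 4.02. None of 5 endothelial markers reached 1 FPKM, and their sum was 0.22 to 0.57. The part of these other lists in the results was not tested. In bulk RNA, fewer cells of a type and less RNA per cell cannot be told apart, so every level below is an average over the culture.

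Replicates of a day differed in the synthesis enzymes as a group. Day 0 replicate 2 held the highest value of its day for 18 of 18 enzymes and day 0 replicate 1 the lowest for 18 of 18, on the log2 CPM scale, whereas over all genes tested replicate 2 was highest for 36.5%. Replicate 1 was also lowest for 14 of 18 enzymes at day 4 and for 15 of 18 at day 8, whereas over all 13154 genes tested it was lowest for 4591, 4662 and 4873 at days 0, 4 and 8. The summed FPKM of the enzymes was 578.3, 724.6 and 611.4 in day 0 replicates 1 to 3. Day 0 replicate 2 was also highest for 8 of 8 proliferation genes. Mki67, a protein of dividing cells, read 9.87, 14.17 and 9.56 FPKM in replicates 1 to 3. The 7 genes of uptake, storage and efflux showed no such order, as replicate 2 was highest for 2 and lowest for 4 of them. The part of proliferation or depth in this order was not tested. Counts and medians of the comparisons that include day 0 are therefore also given without each of day 0 replicates 1 and 2. The shares of all genes that rose or fell come from the fit of all 9 samples only.

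**Figure D1:**
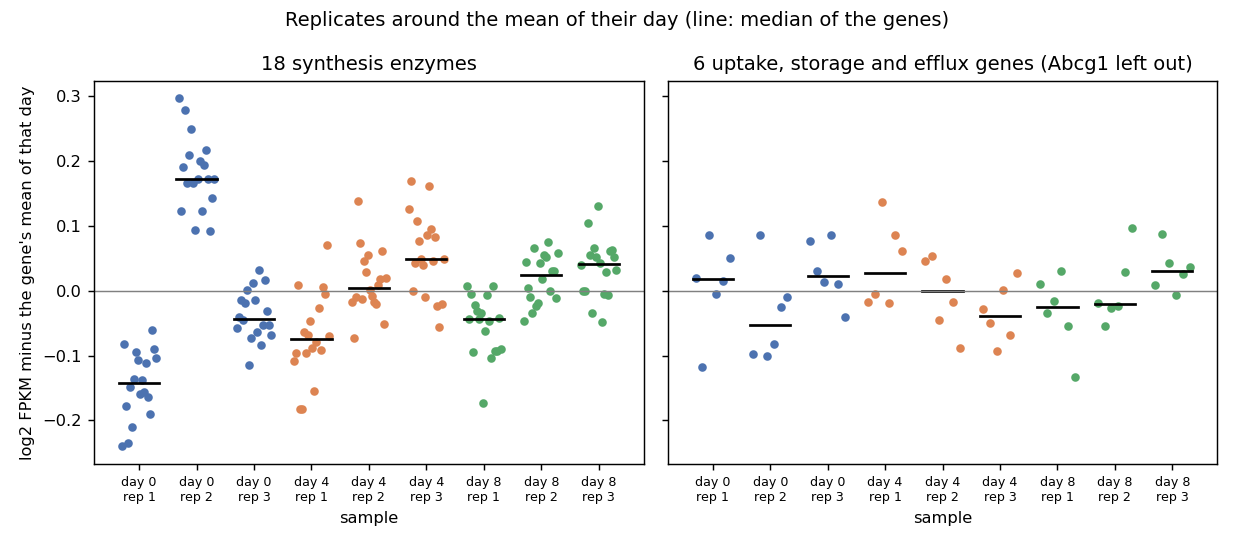
Each point is a gene's log2 FPKM in a library minus its mean over the 3 libraries of that day, for the 18 synthesis enzymes (left) and 6 genes of uptake, storage and efflux (right, Abcg1 left out because of its low day 0 level); black lines are medians. All 18 synthesis points of day 0 replicate 2 lie above 0 and all 18 of day 0 replicate 1 below it, while the points of the other genes straddle 0 in both libraries.

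The early phase, day 4 against day 0, asks how the pathway stands once the inducers have been given. Among the 29 members, 15 rose and 11 fell at an adjusted p under 0.05, beside 35.5% of all genes tested higher and 33.7% lower. Of these, 6 rose and 1 fell by more than 2-fold, beside 9.77% higher and 7.98% lower of all genes. Those past 2-fold were Pmvk, Cyp51 and Dhcr7 among the enzymes, the sterol sensor Insig1, and the efflux pumps Abca1 and Abcg1, all higher, with the storage enzyme Soat1 lower. The synthesis enzymes were split, with 9 higher, 6 lower and 3 not past the threshold, and their median log2 fold change was 0.14 beside 0.0164 for all genes. The median of the enzymes was 0.0737 with library size alone, 0.0733 and 0.0757 in the limma fits and 0.0917 with upper-quartile factors. Enzymes then numbered 7 higher and 7 lower in both limma fits, and 8 and 6 with library size alone or upper-quartile factors. Library size alone also shifted the median of all genes by -0.0659, and upper-quartile factors by -0.049. Of the 7 uptake, storage and efflux genes 4 rose and 3 fell, with a median of 0.37. This median is the value of Npc2, and the genes ranged from -1.3 (Soat1) to 3.85 (Abcg1), so it describes no shared course. Without day 0 replicate 2, 16 members rose and 9 fell, 7 and 1 of them by more than 2-fold. The enzymes then numbered 10 higher and 5 lower with a median of 0.25, and the uptake, storage and efflux genes 4 higher and 3 lower with a median of 0.33. Without day 0 replicate 1, 13 members rose and 10 fell, 4 and 2 of them by more than 2-fold. The enzymes then numbered 8 higher and 6 lower with a median of 0.0832, and the uptake, storage and efflux genes numbered 4 higher and 3 lower with a median of 0.37. The number of enzymes past 2-fold was then 1 in place of 3, as it was with library size alone and with both limma fits. All 8 proliferation genes fell in the same comparison, with a median of -0.92, and their part in these changes was not tested.

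The late phase, day 8 against day 4, covers a further 4 days in maintenance medium. Here 15 members rose and 4 fell, beside 22.5% of all genes higher and 22.7% lower. More than 2-fold, Abcg1 rose and Cyp51 fell, beside 4.24% higher and 2.81% lower of all genes. Synthesis enzymes moved mainly upward, 11 higher against 2 lower, by small amounts, with a median log2 fold change of 0.38 beside -0.00765 for all genes. The highest value among them was 0.60, of Tm7sf2. Without day 4 replicate 1 the enzymes numbered 9 higher and 3 lower, with a median of 0.321. Both limma fits gave 10 higher and 2 lower (medians 0.327 and 0.339), and library size alone 11 and 3 (0.338). Of the uptake, storage and efflux genes 3 rose, 1 fell and 3 did not pass. Their median of 0.10 is the value of Soat1, in a range from -0.576 to 1.22. The median was 0.0645 without day 4 replicate 3, 0.0556 with library size alone and 0.0522 and 0.0561 in the limma fits. Over the whole process, day 8 against day 0, 17 members rose and 9 fell, beside 34.8% and 36.2% of all genes, and 5 rose and 1 fell by more than 2-fold, beside 10.3% and 7.7%. Those lower by more than 2-fold numbered 2 with upper-quartile factors, library size alone and both limma fits. Among the enzymes 12 rose and 3 fell (median 0.37, all genes -0.0178), and among the 7 other genes 3 rose and 4 fell (median -0.21). The latter median is the value of Npc2, in a range from -1.2 to 5.07. Both limma fits gave 9 enzymes higher and 3 lower, and library size alone 10 and 3. The median of the enzymes was 0.246 with limma on log2(FPKM + 1). That of the 7 other genes was -0.316 with library size alone and -0.313 and -0.315 in the limma fits. Without day 0 replicate 2, 19 members rose and 8 fell over the whole process, 5 and 1 of them by more than 2-fold. Among the enzymes 14 then rose and 2 fell (median 0.45), and among the 7 other genes 3 rose and 4 fell (median -0.25). Without day 0 replicate 1, 17 members rose and 9 fell, with 12 enzymes higher and 3 lower (median 0.288) and 3 of the 7 other genes higher and 4 lower (median -0.21). The early and late comparisons share the day 4 libraries, and the early and whole comparisons share those of day 0, so their values are not independent and are given side by side.

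**Figure D2:**
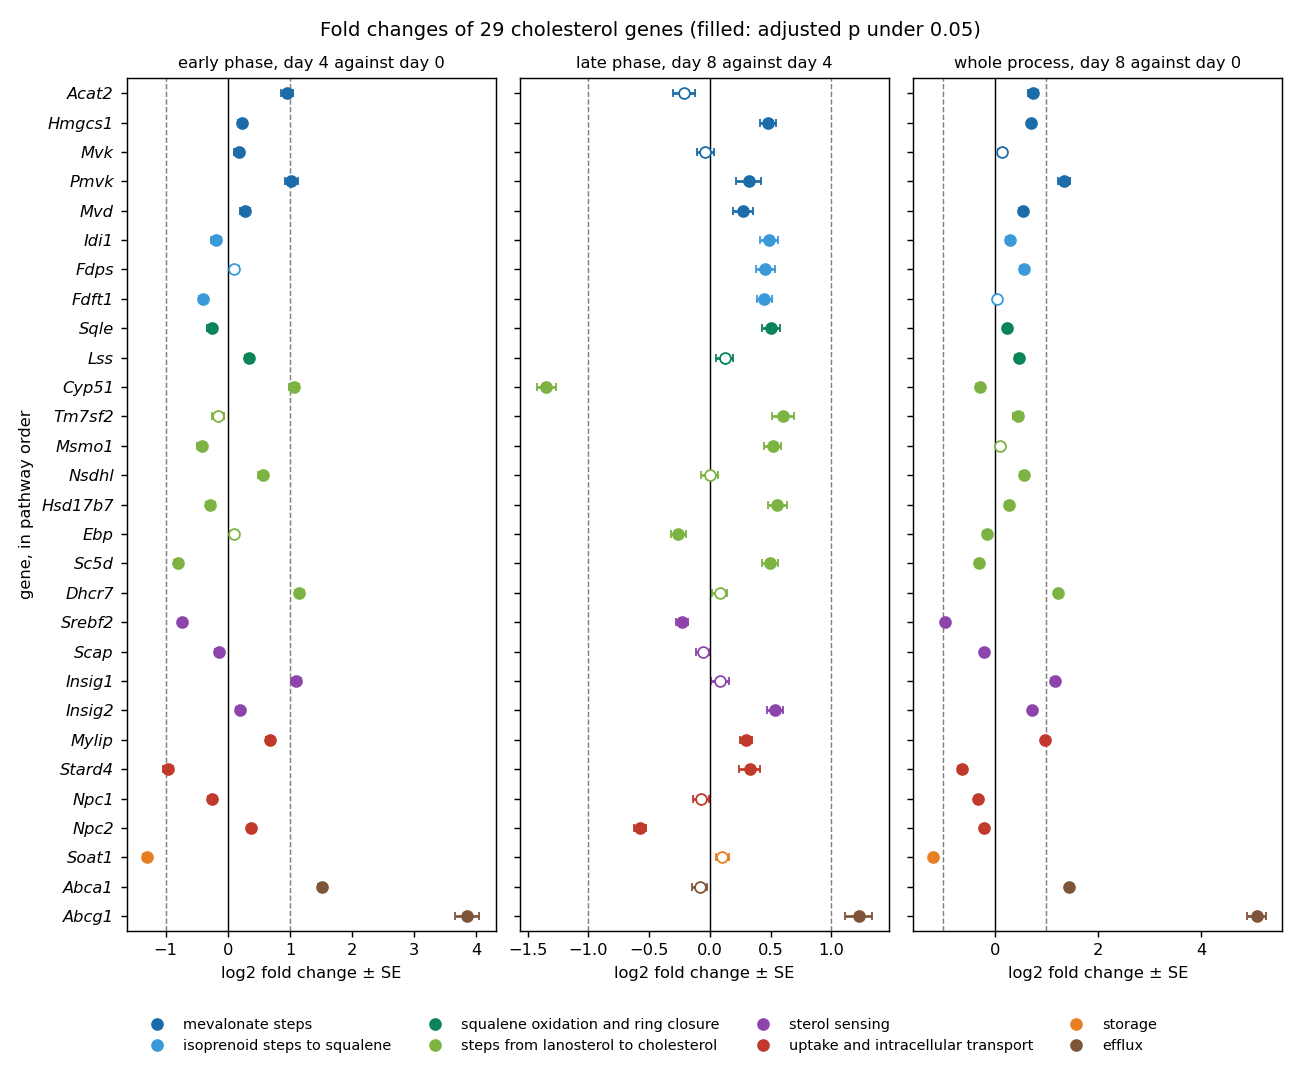
Log2 fold change with its standard error from edgeR for each of the 29 genes, in pathway order from top to bottom, in the early phase (left), late phase (middle) and whole process (right); filled points have an adjusted p under 0.05, colours mark the gene groups, dashed lines mark 2-fold, and the panels have their own horizontal scales. Abcg1 lies farthest right in all 3 panels, and Cyp51 is the enzyme that moves farthest left in the late phase.

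All 5 genes of the mevalonate steps passed the test upward in the early phase, beside 35.5% of all genes tested, though the call of Mvk was lost under 13 of 20 alternatives and that of Hmgcs1 under both limma fits. Pmvk, phosphomevalonate kinase, read 9.85, 14.07 and 11.23 FPKM at day 0, 19.8, 24.72 and 23.15 at day 4 and 25.51, 27.06 and 29.31 at day 8. No library of a later day overlapped those of an earlier one. Its log2 fold change was 1.03 ± 0.112 (SE, n = 3 per day) in the early phase (adjusted p = 5.2e-07) and 1.35 ± 0.11 over the whole process (adjusted p = 1.5e-08), the largest among the enzymes. The late step of 0.32 (adjusted p = 0.017) did not pass without day 4 replicate 1 (0.24) or day 8 replicate 3 (0.28). Acat2, the thiolase that joins acetyl-CoA units, read 35.66, 51.74 and 40.48 FPKM at day 0 and 73.02, 77.77 and 85.88 at day 4, with no overlap (log2 fold change 0.96 ± 0.0944, adjusted p = 1.6e-07). It then stood at 66.32, 63.87 and 67.87 FPKM at day 8, below all day 4 libraries, a difference of -0.21 that did not pass (adjusted p = 0.074) but passed without day 0 replicate 1 (-0.21), day 0 replicate 2 (-0.21) or day 4 replicate 1 (-0.26). Of the 50-base stretches of Acat2 transcripts, 39.1% also occur in other genes, mainly Acat3, so its level is uncertain. Acat3 itself was listed at 0 to 0.57 FPKM.

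Hmgcs1, the synthase that makes HMG-CoA, rose in both phases. It read 47.97, 55.27 and 49.35 FPKM at day 0, 53.15, 53.98 and 63.85 at day 4 and 74.57, 79.28 and 76.9 at day 8. Days 0 and 4 overlapped, whereas every day 8 library was above all others (late log2 fold change 0.48 ± 0.0662, adjusted p = 2.1e-05; early 0.23 ± 0.0667, adjusted p = 0.0063). The early call was lost in both limma fits on log2 FPKM (0.16 in each, adjusted p = 0.066 and 0.064 in a range of 0.0015 to 0.066 over the alternatives). Mvd, the decarboxylase that yields isopentenyl diphosphate, rose by 0.28 in the early and 0.27 in the late phase, the latter call being lost without day 4 replicate 1 (0.19, adjusted p = 0.053 in a range of 0.002 to 0.053 over the 20 alternatives). Mvk, mevalonate kinase, varied little. It lay between 25.42 and 32.84 FPKM in all 9 libraries, and its early value of 0.17 (adjusted p = 0.037) was lost under 13 of 20 alternatives, among them leaving out day 0 replicate 1 or 3, any day 4 library, or day 8 replicate 2 or 3 (0.09 to 0.18 without them). Its whole-process value of 0.14 (adjusted p = 0.093) passed without day 0 replicate 2 (0.23, adjusted p = 0.0038 in a range of 0.0038 to 0.77 over the alternatives).

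Idi1, Fdps and Fdft1 act between isopentenyl diphosphate and squalene. Idi1, the isomerase of that intermediate, and Fdft1, squalene synthase, fell in the early phase, and Fdps, farnesyl diphosphate synthase, did not pass. All 3 rose in the late phase, beside 22.5% of all genes, with log2 fold changes between 0.45 and 0.49. Fdft1 read 28.28, 33.88 and 28.7 FPKM at day 0, 20.81, 22.27 and 22.44 at day 4 and 28.17, 28.48 and 29.91 at day 8. All day 4 libraries were below all others, and days 0 and 8 overlapped (whole process 0.04 ± 0.0623, adjusted p = 0.54). Its exons overlap those of Ctsb on the opposite strand over 18.3% of their bases, and the strandedness of the counting is not given in the sources used here. The same limit holds for Scap (13.2%), Hmgcs1 (12.1%) and Idi1 (9.22%), with less overlap in every other member. Tm7sf2 shares 12.1% of its exonic bases with Vps51 on the same strand. Fdps was the most abundant enzyme per length, at 101.31, 132.34 and 102.82 FPKM at day 0 and 147.37, 149.44 and 158.91 at day 8. Its late change was 0.46 ± 0.0797 (adjusted p = 0.00022), but 26.2% of its 50-base stretches are shared with other genes, mainly Gm43738, which makes this level uncertain too. Without day 0 replicate 2, the early change of Fdps passed at 0.23 (adjusted p = 0.0032 in a range of 0.0032 to 0.74 over the alternatives). The early fall of Idi1, -0.19 with an adjusted p of 0.038, was lost without day 0 replicate 2 (-0.09), day 0 replicate 3 (-0.20), day 4 replicate 1 (-0.16) or day 4 replicate 2 (-0.20). In FPKM Idi1 ranged from 23.61 to 31.61 before induction, and these libraries overlapped those of day 4 (21.96 to 24.21) and of day 8 (30.44 to 32.64). Its late rise of 0.49 ± 0.0771 (adjusted p = 8.3e-05) passed under every alternative.

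Squalene is then oxidised by Sqle and folded into lanosterol by Lss. Sqle read 47.69, 54.79 and 51.76 FPKM at day 0, 39.69, 42.58 and 40.72 at day 4 and 49.73, 57.76 and 61.45 at day 8. Day 4 was the low point in every library, with an early log2 fold change of -0.26 ± 0.0724 (adjusted p = 0.0047) and a late one of 0.50 ± 0.0722 (adjusted p = 3.1e-05). Lss was less abundant, 8.36 to 10.52 FPKM at day 0, and rose early by 0.34 ± 0.0708 (adjusted p = 0.00045). Its late value of 0.12 did not pass (adjusted p = 0.17).

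Of the 8 member enzymes that turn lanosterol into cholesterol, 3 rose, 3 fell and 2 did not pass in the early phase, beside 35.5% higher and 33.7% lower of all genes. Lbr, a sterol enzyme outside the members, did not pass early (-0.18, adjusted p = 0.073). It fell late (-0.46, adjusted p = 0.00059) and over the whole process (-0.64, adjusted p = 7.8e-06). Dhcr7, a terminal reductase, read 18.46, 22.37 and 18.93 FPKM at day 0, 40.14, 42.72 and 43.61 at day 4 and 40.53, 44.93 and 44.1 at day 8. Its libraries of day 0 stood below all others, and days 4 and 8 overlapped. It rose by 1.15 ± 0.0674 in the early phase (adjusted p = 2.4e-10), and the late value of 0.08 did not pass (adjusted p = 0.33). Nsdhl, a sterol dehydrogenase, rose in the early phase by 0.57 ± 0.0726 (adjusted p = 3.5e-06), and its late change did not pass (adjusted p = 0.98).

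Cyp51, the cytochrome P450 that strips a methyl group from lanosterol, peaked at day 4. It read 24.56, 31.06 and 25.87 FPKM at day 0, 48.28, 53.45 and 60.08 at day 4 and 20.46, 21.36 and 19.88 at day 8. The 3 days did not overlap. It rose by 1.06 ± 0.0798 (adjusted p = 5.7e-09) and then fell by 1.35 on the log2 scale (SE 0.081, adjusted p = 1.7e-09), to end at -0.29 against day 0 (adjusted p = 0.0051).

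Msmo1, Hsd17b7 and Sc5d, an oxidase, a reductase and a desaturase of sterol intermediates, fell in the early phase and rose in the late phase. Sc5d read 27.86, 32.72 and 28.57 FPKM at day 0, 17.03, 15.65 and 15.99 at day 4 and 21.51, 21.96 and 22.96 at day 8. The days did not overlap, and the early fall of 0.81 on the log2 scale (change -0.81 ± 0.0649, adjusted p = 1.3e-08) exceeded the late rise of 0.49 ± 0.0659 (adjusted p = 1.5e-05), so that day 8 remained below day 0 (-0.31, adjusted p = 0.00036). For Msmo1 the early and late changes were -0.42 and 0.52, and day 8 did not differ past the threshold from day 0 (0.10, adjusted p = 0.21), though it did without day 0 replicate 2 (0.20). Its day 4 libraries, 61.11 to 64.28 FPKM, lay below all others (80.26 to 99.43). For Hsd17b7 the changes were -0.28 and 0.55, and its day 4 libraries (7.04 to 7.24 FPKM) were again lowest, below a day 0 range of 7.94 to 10.21. Tm7sf2, a sterol reductase, did not pass early (-0.15, adjusted p = 0.16) and rose late by 0.60 ± 0.0913 (adjusted p = 5.3e-05), from 6.61, 6.9 and 7.46 FPKM to 9.97, 10.67 and 10.26. Ebp, a sterol isomerase, did not pass early (0.10, adjusted p = 0.15) and fell by 0.26 on the log2 scale in the late phase (adjusted p = 0.0035). Its day 8 libraries (20.26 to 22.58 FPKM) lay below those of both other days (24.99 to 27.88). Its call over the whole process, -0.16, was lost without day 0 replicate 2 (-0.11), day 0 replicate 3 (-0.17), day 4 replicate 2 (-0.14), day 8 replicate 1 (-0.10) or day 8 replicate 2 (-0.17).

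**Figure D3:**
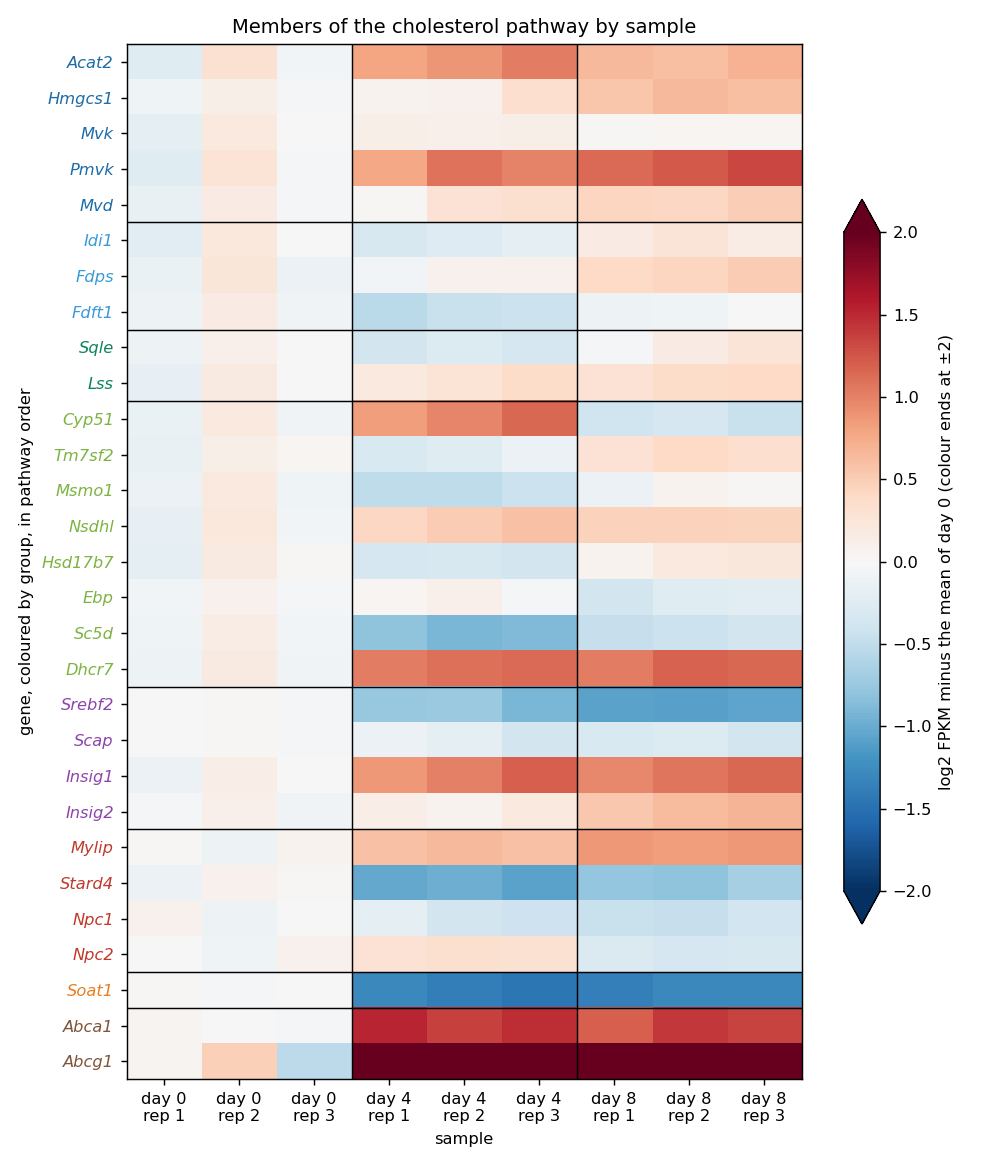
Colour gives log2 FPKM minus the gene's mean over the 3 day 0 libraries, for 29 genes in pathway order (rows) and 9 libraries (columns); black lines separate gene groups and days, and colours end at a difference of 2. Cyp51 is red at day 4 and pale blue at day 8, the rows of Idi1, Fdft1, Sqle, Msmo1, Hsd17b7 and Sc5d are bluest at day 4, and Soat1 and Srebf2 are blue at both later days.

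Promoter sequence was examined because members of the same pathway are known to share elements for SREBP and its partner NF-Y. The bases before the start site are printed for 4 enzymes of different course, Hmgcs1 (rose in both phases), Idi1 and Sc5d (fell, then rose) and Cyp51 (rose, then fell). They are RefSeq sequences of build GRCm38.p6, 150 bases directly before the outer end of the gene, read 5′ to 3′ on the gene's strand; the build to which the authors mapped is not given in the sources used here. Capitals mark the letters TCACNCCAC, a form of the sterol regulatory element, and CCAAT, the NF-Y box, on either strand (ATTGG is CCAAT read on the other strand).
Hmgcs1, chr13:119690201-119690350, plus strand: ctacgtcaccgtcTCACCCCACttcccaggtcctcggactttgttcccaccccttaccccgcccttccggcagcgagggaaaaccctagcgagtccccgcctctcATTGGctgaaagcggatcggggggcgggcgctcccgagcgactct
Idi1, chr13:8885456-8885605, plus strand: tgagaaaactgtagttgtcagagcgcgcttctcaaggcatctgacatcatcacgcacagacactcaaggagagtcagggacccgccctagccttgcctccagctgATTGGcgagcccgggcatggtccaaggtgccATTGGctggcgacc
Sc5d, chr9:42264301-42264450, minus strand: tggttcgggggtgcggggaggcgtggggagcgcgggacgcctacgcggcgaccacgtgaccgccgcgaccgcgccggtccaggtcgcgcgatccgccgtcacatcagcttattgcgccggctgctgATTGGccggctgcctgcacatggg
Cyp51, chr5:4104698-4104847, minus strand: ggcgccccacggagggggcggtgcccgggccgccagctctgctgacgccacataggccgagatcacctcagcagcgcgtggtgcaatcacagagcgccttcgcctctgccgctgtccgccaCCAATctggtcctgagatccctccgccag
Hmgcs1 holds the sterol element once, and each of the 4 windows holds CCAAT at least once, Idi1 2 times. Among the 23 members with a RefSeq entry, searched over 250 bases before to 50 after the start, 20 held CCAAT (14 of 15 enzymes), beside 41.1% of all 27025 genes with an entry and 43.7% of the 10416 among them that were tested. For 18 of these 23 an entry starts at the outer end of the gene, and for 5 (Mvk, Lss, Hsd17b7, Insig2 and Abca1) the start lies inside it. For the other motifs the share of all genes with an entry is given first and that of the tested ones second. TCACNCCAC was in 1 of 23 (1.44% and 1.32%), and its shorter or looser forms TCACNCCA, CACNCCAC and TCACNCNAC, which overlap it, in 3 (4.97% and 4.35%), 3 (7.12% and 7.4%) and 2 (3.15% and 3.35%). CACGTG was in 6 (8.09% and 11.6%) and TGACG in 10 (23% and 34.9%). These 7 motifs were chosen with the expression results known. A match is a description of letters and not a binding site, and its absence says only that these letters are not in this window. Enzymes that rose early (Hmgcs1, Cyp51) and enzymes that fell early (Idi1, Sc5d) both had CCAAT in the printed windows. Entries were lacking for Fdps, Fdft1, Sqle, Stard4, Npc1 and Abcg1.

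Of the 4 sterol-sensing genes, 2 rose and 2 fell in the early phase (all genes 35.5% and 33.7%). Srebf2, which encodes SREBP2, read 85.16, 87.04 and 84.49 FPKM at day 0, 50.77, 51.35 and 45.51 at day 4 and 40.63, 40.34 and 41.2 at day 8. Each day lay wholly below the one before it. It fell in the early phase (-0.73 ± 0.051, adjusted p = 2.1e-09) and again in the late phase (-0.23 ± 0.0514, adjusted p = 0.0019), to -0.96 ± 0.0513 over the whole process (adjusted p = 7.7e-11). Insig1, an inhibitor of SREBP transport, went the other way, with 35.23, 41.79 and 38.18 FPKM at day 0, 69.55, 77.18 and 87.62 at day 4 and 74.9, 80.6 and 84.59 at day 8. Its early rise was 1.09 ± 0.0786 (adjusted p = 3.2e-09), and days 4 and 8 overlapped. Insig2, its paralog, rose in the late phase by 0.54 ± 0.0644 (adjusted p = 4.9e-06), from 11.46, 11.06 and 12.01 FPKM to 15.3, 16.23 and 16.79. The early value of Insig2, 0.19 (adjusted p = 0.017), was lost without day 0 replicate 1 (0.18), day 0 replicate 3 (0.16) or day 4 replicate 3 (0.17). Scap, the escort protein, changed little, by -0.15 in the early phase (adjusted p = 0.031), a call lost without day 0 replicate 1 (-0.14), day 0 replicate 2 (-0.15) or day 4 replicate 3 (-0.08). Leaving out day 4 replicate 3 also brought its late value past the threshold (-0.13).

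Of the genes for uptake and intracellular transport, Mylip encodes the ubiquitin ligase IDOL, which marks lipoprotein receptors for degradation. It read 25.51, 23.51 and 26.54 FPKM at day 0, 37.9, 39.59 and 37.62 at day 4 and 46.04, 45.13 and 46.01 at day 8. Each day lay wholly above the one before it, with log2 fold changes of 0.67 ± 0.0525 (adjusted p = 8.6e-09) and 0.30 ± 0.051 (adjusted p = 0.00017). Stard4, a soluble sterol carrier, read 8.1, 9.33 and 8.98 FPKM at day 0, 4.3, 4.48 and 4.17 at day 4 and 5.12, 5.05 and 5.57 at day 8. It fell early by 0.96 on the log2 scale (SE 0.0789, adjusted p = 1.7e-08) and rose late by 0.33 ± 0.0828 (adjusted p = 0.0044). Npc1 and Npc2 together carry cholesterol out of the lysosome, yet they did not move together in the early test, where Npc1 fell (-0.25 ± 0.0645, adjusted p = 0.0027) and Npc2 rose (0.37 ± 0.0493, adjusted p = 5.1e-06). Over the whole process both were lower, Npc1 by -0.32 (adjusted p = 0.00031) and Npc2 by -0.20 (adjusted p = 0.0015). In FPKM Npc2 was the most abundant member at days 0 and 4, and Fdps was above it at day 8. Npc2 read 149.38, 141.65 and 159.11 FPKM at day 0, 182.92, 187.66 and 185.64 at day 4 and 123.02, 118.56 and 119.93 at day 8. Its days did not overlap, and the late change was -0.58 ± 0.0495 (adjusted p = 1e-07).

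The single storage gene fell and both efflux genes rose in the early phase. Soat1, which esterifies cholesterol for storage, read 31.04, 30.16 and 30.91 FPKM at day 0, 12.58, 11.71 and 11.31 at day 4 and 11.87, 12.58 and 12.55 at day 8. Every later library was below all of day 0, and days 4 and 8 overlapped. It was 2.47-fold lower at day 4 than at day 0 (SE 0.0518 on the log2 scale, adjusted p = 2e-12), the largest early fall among the members, and the late value of 0.10 (adjusted p = 0.14) passed without day 4 replicate 1 (0.15). Abca1, which loads cholesterol onto apolipoprotein A-I, rose by 1.52 ± 0.0631 (adjusted p = 3.3e-12), from 8.68, 8.33 and 8.15 FPKM to 23.98, 21.61 and 23.42, and stood at 19.14, 22.43 and 21.51 at day 8. Abcg1, which exports cholesterol to high-density lipoprotein, was barely detected before induction. Its expected counts were 15, 17 and 10 at day 0, 168, 216 and 211 at day 4 and 408, 462 and 477 at day 8, which corresponds to 0.12, 0.16 and 0.08, then 1.42, 1.8 and 1.82, then 3.44, 3.89 and 4.08 FPKM. The days did not overlap, with log2 fold changes of 3.85 ± 0.195 in the early phase (adjusted p = 4e-11) and 1.22 ± 0.113 in the late phase (adjusted p = 2.5e-07). In FPKM, Abcg1 remained below Abca1 in every library.

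**Figure D4:**
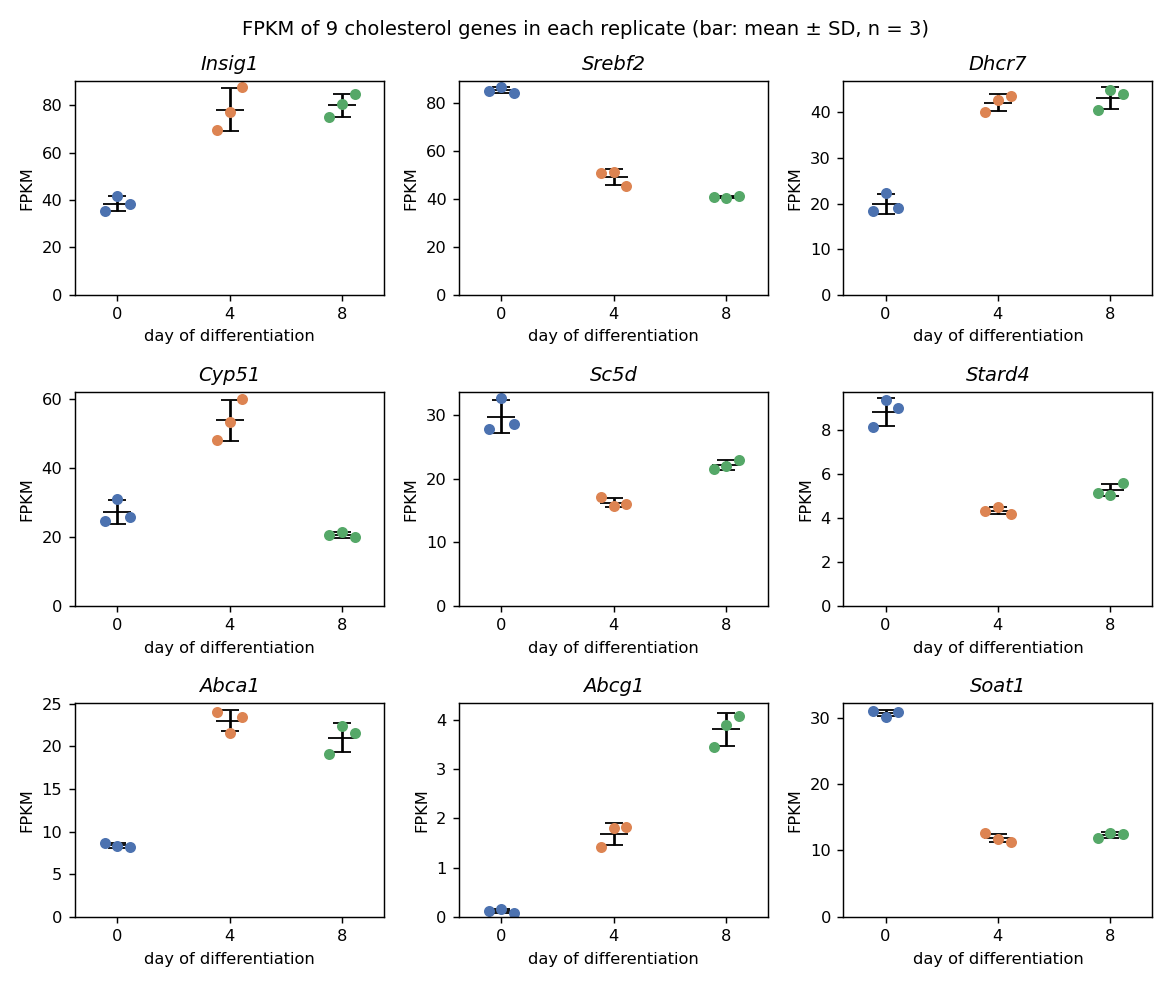
FPKM of 9 members in each of 3 replicates at days 0, 4 and 8, with vertical axes from 0; horizontal bars give the mean and whiskers the SD (n = 3). Insig1, Dhcr7 and Abca1 step up by day 4 and Soat1 steps down, Srebf2 falls at each day, Cyp51 peaks at day 4, Sc5d and Stard4 dip at day 4, and Abcg1 climbs from at most 0.16 FPKM at day 0 to at least 3.44 at day 8.

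Set side by side, the summed level of the 18 enzymes was 663.7, 707.6 and 737.8 FPKM at day 4 and 754.8, 791.3 and 805.6 at day 8, against 578.3, 724.6 and 611.4 at day 0. Day 8 lay above all other libraries, and day 4 overlapped day 0 through day 0 replicate 2. The 7 uptake, storage and efflux genes summed to 241.4, 229.4 and 251.4 FPKM at day 0, 278.5, 280.5 and 277.1 at day 4 and 221.4, 220.3 and 223 at day 8. For them day 4 was highest and day 8 lowest, without overlap, and most of the sum was Npc2. The difference between these gene groups was not tested, since genes of a list are not replicates.

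Further genes of the pathway were taken from lists and are given as counts with their named extremes. Of 8 tested lipoprotein receptors and lysosomal factors, 5 rose and 3 fell in the early phase, when 35.5% of all genes tested rose and 33.7% fell. Scarb1, the receptor for high-density lipoprotein, read 23.64, 27.95 and 22.89 FPKM at day 0, 50.04, 57.39 and 56.05 at day 4 and 67.01, 69.6 and 73.64 at day 8, without overlap between days (early 1.21 ± 0.0729, adjusted p = 3.4e-10; late 0.41 ± 0.069, adjusted p = 0.00015). Lrp8, a receptor present at 1 to 1.87 FPKM at day 0, fell early by 2.08 on the log2 scale, and Olr1, a scavenger receptor at 0.06 to 0.1 FPKM at day 0, rose by 4.72 (adjusted p = 3.4e-10).

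Among 3 genes of ester formation and hydrolysis, 1 rose and 2 fell in the early phase (all genes 35.5% and 33.7%). Soat2, at 0.63 to 1.03 FPKM at day 0, fell early by 0.88 on the log2 scale (adjusted p = 0.0052). Lipe and Nceh1, a pair of ester hydrolases, diverged. Lipe, hormone-sensitive lipase, read 5.8, 5.68 and 6.01 FPKM at day 0, 127.12, 159.86 and 169.87 at day 4 and 237.26, 253.47 and 256.28 at day 8, and rose by 4.72 ± 0.0988 in the early phase (adjusted p = 1.1e-15). Nceh1 fell by 1.77 on the log2 scale (adjusted p = 3.2e-10), from 5.26 to 6.12 FPKM at day 0 to 1.4 to 1.85 at day 4. Of 11 tested genes of LXR, oxysterol metabolism and LXR targets, 6 rose and 3 fell early (all genes 35.5% and 33.7%). Nr1h3, which encodes LXR alpha, read 2.03, 1.74 and 2.1 FPKM at day 0, 37.21, 46.48 and 51.04 at day 4 and 46.32, 46.67 and 48.33 at day 8 (early 4.55 ± 0.122, adjusted p = 1.7e-14). Its partner Rxra rose by 1.17 and then fell by 0.81 on the log2 scale. Hsd3b7, an oxysterol enzyme, rose by 1.26 early and fell late (-0.16). The LXR targets Lpcat3 (1.51) and Srebf1 (1.35) rose early, whereas Pltp (-1.25) and Arl4c (-1.57) fell early and rose late (0.59 and 0.70). Ch25h, Cyp27a1 and Smpdl3a were too low to test.

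Of 10 genes for the cleavage of SREBP and for degradation in the endoplasmic reticulum, 4 rose and 1 fell early (all genes 35.5% and 33.7%), none by more than 2-fold, with a median log2 fold change of 0.0935, and the largest change was that of Mbtps2, a protease that releases SREBP (-0.57 ± 0.0666, adjusted p = 1.2e-06). Acat1, the mitochondrial paralog of the thiolase, rose early by 1.08 ± 0.052 (adjusted p = 2.2e-11).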

How the data were processed

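Libraries of 3 stages with 3 replicates each were used. According to the methods, the authors removed low-quality reads, mapped with HISAT/Bowtie2 and quantified with RSEM, and the submitters' processing notes name CASAVA 1.4 and Bowtie2. The genome build is not given in the sources used here. The deposited expected counts are RSEM estimates without normalization (29.8% are not whole), and the authors also deposited FPKM, scaled to gene length and depth. Here, rounded expected counts entered edgeR 4.0.16 in R 4.3.3: filterByExpr by day, TMM factors (0.954 to 1.05), and the quasi-likelihood test on all 9 samples with a coefficient per day. Benjamini-Hochberg adjustment covered 13154 genes, and the thresholds were an adjusted p under 0.05 and, where stated, a fold change above 2. FPKM served for levels. The text names all 29 members and, of the other lists, genes past both thresholds whose average log2 CPM reached 1 and the largest change of each list; some genes covered by this rule are not reported here. Members and lists were chosen with earlier results of these data known. Of the lists, Faxdc2 and C1qa were not found, and 26 symbols turned into dates were restored from gene IDs. Stretches of 50 bases of GENCODE vM21 transcripts were compared, and a gene sharing over 20% was called uncertain. The fit of day 4 against day 0 was run on simulated counts with 200 changed genes. At 1.3-fold 158 of 200 passed the adjusted p threshold, with 2 unchanged genes called, and at 3-fold 200 of 200, with 12. The simulation used the same dispersion for all genes and far fewer changed genes than the real comparison, so it does not give error rates for these data. Alternatives were RLE factors, upper-quartile factors and library size alone, DESeq2 1.42.0, edgeR's exact test, no filter or at least 10 counts in every sample, limma 3.58.1 on log2(FPKM + 1) and log2(FPKM + 0.1), fits of only the 2 days compared, a replicate block, and leaving out each sample.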

Additional observations from a re-analysis of the deposited data

How the results depend on the processing

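Of 71 changes of members past the threshold, 60 passed it in the same direction under all 20 alternatives, 11 were lost under at least 1, 7 others were gained, and 0 of 1740 values reversed. Calls lost or gained by leaving out a sample stand beside the results. Both limma fits, on log2(FPKM + 1) and log2(FPKM + 0.1), lost Hmgcs1, Mvk and Insig2 early, Pmvk late and Idi1, Sqle and Hsd17b7 over the whole process, and gained Tm7sf2 early. Library size alone lost Mvk and Insig2 early and Sqle and Hsd17b7 over the whole process, gained Acat2 late, and shifted the median of all genes by -0.111 over the whole process. Upper-quartile factors lost Mvk and Insig2 early. Fits of only the 2 days compared lost Mvk, Idi1 and Scap early and gained Acat2 late. RLE factors, DESeq2 and no filter lost Ebp over the whole process, DESeq2 also lost Mvk early, and no filter gained Acat2 late. The cause was not tested. Members lower by more than 2-fold in the early phase numbered 2 in place of 1 with upper-quartile factors, library size alone and limma on log2(FPKM + 0.1), and 1 to 2 when single samples were left out. Over the whole process they numbered 2 with upper-quartile factors, library size alone and both limma fits. With limma on log2(FPKM + 1), 0 members in place of 1 were higher by more than 2-fold in the late phase. The median log2 fold change of the synthesis enzymes over the whole process was 0.262 with library size alone, 0.246 with limma on log2(FPKM + 1) and 0.264 on log2(FPKM + 0.1), and 0.288 to 0.454 with single samples left out. In the early phase it was 0.0737, 0.0733 and 0.0757 in the same fits and 0.0917 with upper-quartile factors, and leaving out single samples gave 0.0832 to 0.25. In the late phase it was 0.338, 0.327 and 0.339 in the same fits, and 0.321 to 0.45 with single samples left out. Enzymes higher by more than 2-fold in the early phase numbered 1 in place of 3 with library size alone and both limma fits. For the uptake, storage and efflux genes, upper-quartile factors, library size alone and limma with 1 and 0.1 added gave 0.323, 0.306, 0.305 and 0.307 in the early phase and -0.261, -0.316, -0.313 and -0.315 over the whole process. Library size alone and both limma fits gave 0.0556, 0.0522 and 0.0561 in the late phase. Leaving out single samples gave 0.327 to 0.417 early, 0.0645 to 0.145 late and -0.249 to -0.159 over the whole process. Over all genes tested, the correlation of deviations between samples with the same replicate number was -0.0348 to 0.075, and 0 of 9 pairs exceeded 0.1. The mean over these pairs was 0.0308, beside -0.0154 for samples with different numbers. The synthesis enzymes alone were not examined in this way. The replicate block changed 1 call, Acat2 in the late phase (-0.21, adjusted p = 0.038 in a range of 0.0079 to 0.28), and left 15 members higher and 11 lower in the early phase. Depth limits mainly Abcg1 at day 0.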

Other observations

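Genes of the non-sterol branch of the isoprenoid pathway, which uses the same farnesyl diphosphate for ubiquinone, dolichol and protein prenylation, rose for 7 and fell for 2 of 14 in the early phase, none by more than 2-fold, and 1 fell in the late phase. Of all genes tested, 35.5% rose and 33.7% fell early, and 22.7% fell late. The largest change among the 14 genes of this branch was that of Pdss1, a subunit of the synthase of the ubiquinone tail. Pdss1 went from 3.22, 4.12 and 3 FPKM at day 0 to 5.41, 6.26 and 7.03 at day 4 (log2 fold change 0.93 ± 0.139, adjusted p = 1.9e-05). Of 12 tested sterol transfer proteins 7 rose and 1 fell early (all genes 35.5% and 33.7%). Gramd1b, which carries cholesterol from the plasma membrane to the endoplasmic reticulum, read 7.4, 6.77 and 7.02 FPKM at day 0, 22.5, 26.1 and 24.91 at day 4 and 24.47, 27.89 and 26.46 at day 8 (early 1.86 ± 0.074, adjusted p = 2e-12), with days 4 and 8 overlapping. Osbpl9, an oxysterol-binding protein relative, rose by 1.10 and then fell by 0.73 on the log2 scale.

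Fatty acid synthesis genes are known targets of the sister factor SREBP1. Of 11 tested, 6 rose and 3 fell in the early phase (all genes 35.5% and 33.7%) and 9 rose and 1 fell in the late phase (all genes 22.5% and 22.7%). Scd1, a desaturase, read 32.23, 39.36 and 34.19 FPKM at day 0, 557.48, 680.22 and 719.04 at day 4 and 1723.84, 2102.29 and 2128.99 at day 8, with log2 fold changes of 4.28 ± 0.111 and 1.65 ± 0.0985 (adjusted p = 1.3e-14 and 1.5e-09). Fasn, fatty acid synthase, rose early by 1.26. Acss2, which makes acetyl-CoA from acetate, and Me1, malic enzyme, rose in both phases and passed 2-fold over the whole process (1.78 and 1.18). Thrsp, a lipogenic protein, went from 0.09, 0.2 and 0.09 FPKM at day 0 to 136.58, 162.13 and 175.61 at day 4 and back to 37.62, 38.99 and 35.95 at day 8. Fads1 and Fads2, desaturases of polyunsaturated fatty acids, fell early (-0.59 and -0.63) and rose late (0.61 and 0.99). Of the 8 proliferation genes, 4 rose in the late phase (all genes 22.5%), none of them by more than 2-fold.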
